A study of Homo sapiens with 8 samples.

Results

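Annexin, S100 and galectin genes encode calcium-binding and sugar-binding proteins that are often abundant in pancreatic carcinoma. The 10 genes described here were listed by name (ANXA1, ANXA2, ANXA5, S100A4, S100A6, S100A10, S100A11, S100A16, LGALS1 and LGALS3). All 10 were found among the 63568 genes of the count table by Ensembl identifier. RNA methylation and expression had been measured in MIAPaCa-2, an established human pancreatic carcinoma line, by methylated RNA immunoprecipitation sequencing (MeRIP-seq), in which fragmented RNA is precipitated with an antibody against N6-methyladenosine (m6A) and a part is kept as input. The control cells carried a control short hairpin RNA (shRNA-Control), and the METTL3-KD cells carried an shRNA against METTL3 (shRNA-METTL3), the catalytic subunit of the main m6A methyltransferase. Each condition had 2 input and 2 m6A samples, which makes 8 in all. Their titles differ by L001 and L002, taken here as 2 sequencing lanes of 1 library, although the labels do not say so in words. Whether the knockdown cells were a pool or a clone is not given in the sources used here.

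Annexins bind acidic phospholipids of membranes when calcium is present, and they take part in membrane repair, vesicle traffic and the control of inflammation. S100 proteins are small EF-hand proteins that mostly act as dimers and expose a binding surface upon calcium binding. S100A10 is the exception, since it no longer binds calcium and is held in the active form, in a complex with ANXA2. S100A11 binds ANXA1 in a similar manner. Galectins bind β-galactosides on glycoproteins, inside and outside the cell. METTL3 methylates adenosines mostly within a motif named DRACH, which reads A, G or T, then A or G, then AC, then A, C or T.

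The peaks found in these genes all came from the control list. At a q value under 0.01, 5 control peaks lay in the bodies of 4 of the 10 genes, S100A4 with 2 peaks and ANXA1, ANXA2 and LGALS1 with 1 each, and no METTL3-KD peak lay in any of the 10. Of all 9931 genes tested, 15.3% had a control peak and 5.1% had a METTL3-KD peak in the gene body, and the METTL3-KD list was shorter, with 830 peaks against 2298. The DRACH motif nearest to each summit is printed in RNA sense with hg19 coordinates, to show the bases under each peak, with the motif in capitals and with 12 bases on each side of its adenosine. The nearest motif with all 25 bases inside an exon was taken where there was one, and the site under the ANXA2 peak is intronic.
S100A4, chr1:153516132-153516156, minus strand, 3′UTR: tggctccttcAGACAcgtgcttgat
S100A4, chr1:153516341-153516365, minus strand, coding sequence: tgagcaacttGGACAgcaacaggga
LGALS1, chr22:38075628-38075652, plus strand, coding sequence: caggccaaccTGACCgtcaagctgc
ANXA1, chr9:75775755-75775779, plus strand, coding sequence: ttggcatcaaGAACTaacaaagaaa
ANXA2, chr15:60644028-60644052, minus strand, intron: tcggatctgaTAACTctttgttgtt

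S100A4, which encodes a metastasis-associated S100 protein that binds nonmuscle myosin, had the peaks with the most fragments. The first peak spanned 153516101 to 153516211 on chromosome 1, with its summit in the 3′UTR, 79 nt after the stop codon and 59 nt before the transcript end. The second spanned 153516302 to 153516445, with its summit in the coding sequence, 139 nt before the end of the stop codon. Both summits lay in the last of 3 exons, 218 bp apart. Each peak had a pileup of 4 fragments, a fold enrichment of 5.0 over background and a −log10 q value of 13.4. The pileup is the number of distinct fragments at the summit, and 91 of the 2298 control peaks (3.96%) had 4 or more. More than 1 control peak in the gene body was found for 257 of the 9931 genes tested, and for 83 with a fold above 2. At a fold enrichment of at least 4, which left 88 control peaks, S100A4 was the only one. Within 50 nt of the second summit there were 4 DRACH motifs, of which 3 read GGACA and 1 read GGACT, whereas 1 motif, AGACA, lay that close to the first.

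LGALS1, the gene of galectin-1, had its peak at 38075633 to 38075732 on chromosome 22, in the last of 4 exons. The summit lay in the coding sequence, 74 nt before the end of the stop codon. The ANXA2 peak at 60643993 to 60644092 on chromosome 15 had its summit in an intron, 25 nt from the nearest exon, and its 3′ part reached into coding sequence. Both peaks had a pileup of 3 fragments, a fold enrichment of 3.97 and a −log10 q value of 5.20. ANXA1 encodes a calcium-dependent inhibitor of inflammation, and its peak at 75775686 to 75775785 on chromosome 9 lay in coding sequence in exon 6 of 13. This peak rested on a pileup of 1 fragment, like 1196 of the 2298 control peaks, with a fold enrichment of 1.9994 and a −log10 q value of 2.93. With the criterion of the study for significant peaks, a fold above 2 beside a q value under 0.01, ANXA1 has no peak, and 3 members instead of 4 have one, against 8.66% of all genes tested. The nearest METTL3-KD summit was 163 kb away for LGALS1, 219 kb for S100A4 and farther for the others.

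**Figure D1:**
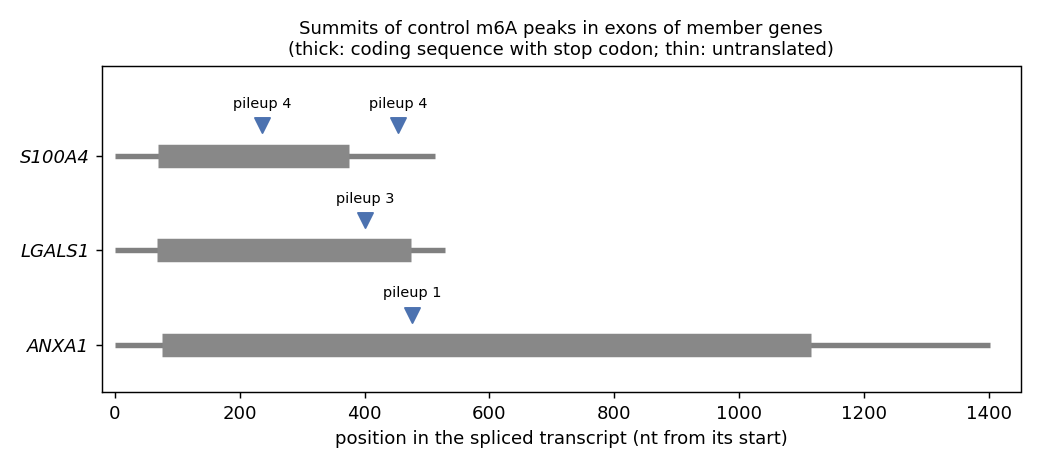
Summits of the control m6A peaks (triangles) along the spliced transcripts of S100A4, LGALS1 and ANXA1, in nt from the transcript start, with the pileup in fragments above each. The S100A4 transcript carries 2 summits with a pileup of 4, LGALS1 has 1 with a pileup of 3 and ANXA1 has 1 with a pileup of 1.

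All 5 windows held a DRACH motif within 50 nt of the summit. Among 1442 control windows of the same length whose summits lay in exons of 1 strand, 83.8% held one, so its presence in the 5 was close to the background. The letters GGAC stood in 1 of the 5 windows, that of the second S100A4 peak, and in 34% of the 1442. Base composition ranged from 33.7% GC in the ANXA1 window to 54.5% in the LGALS1 window.

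The peak lists also record the local input background at each summit. At the S100A4 and ANXA1 summits this background equalled the genome average within rounding, which corresponds to 0 distinct input positions in the 10000-bp window used by the peak caller. At the LGALS1 and ANXA2 summits it was 29.1 times the genome average, which corresponds to 1 distinct input position in that window. The LGALS1 gene lies wholly within that window, so the 883 control input reads of LGALS1 stood beside 1 distinct input position. S100A4 thus had 4 fragments under each summit in the control m6A library beside 0 reads in the control input.

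In the inputs, reads were counted per gene in each lane. S100A6 (calcyclin, ENSG00000197956.5, chr1:153507075-153508720) gave 512 and 548 reads for the control and 338 and 341 for METTL3-KD cells. ANXA2 (ENSG00000182718.12, chr15:60639333-60695082), the partner of S100A10 at the plasma membrane, had 551 and 520 control reads and 324 and 327 METTL3-KD reads. LGALS1 (ENSG00000100097.7, chr22:38071643-38075809) had 423 and 460 control reads and 126 and 137 METTL3-KD reads. These were the 3 members with at least 10 control reads, and for each of them both control lanes lay above both METTL3-KD lanes before scaling.

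The other members had almost no control reads. S100A4 (ENSG00000196154.7, chr1:153516089-153522612) had 0 reads in both control lanes, against 291 and 270 for METTL3-KD cells. LGALS3 (ENSG00000131981.11, chr14:55590828-55612141), the gene of galectin-3, had 0 and 0 control reads and 121 and 107 METTL3-KD reads. S100A11 (ENSG00000163191.5, chr1:152004982-152020383) had 0 and 1 control reads and 107 and 131 METTL3-KD reads. A similar picture was seen for the remaining 4 genes, with all lanes of the METTL3-KD input above those of the control. ANXA1 (ENSG00000135046.9, chr9:75766781-75785309) had 0 reads in each control lane, against 89 and 95 in the METTL3-KD lanes. ANXA5 (ENSG00000164111.10, chr4:122589101-122618150), which binds phosphatidylserine, had 0 reads in each control lane, against 50 and 44. S100A10 (ENSG00000197747.4, chr1:151955391-151966335) had 0 in each, against 36 and 37. S100A16 (ENSG00000188643.6, chr1:153579362-153585621) had 0 and 1 control reads, against 8 and 10. For all 13 combinations of gene and library with at least 10 reads, the exact 95% interval of the share of lane 1 included that of the whole library. The lanes measure no spread between cultures.

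**Figure D2:**
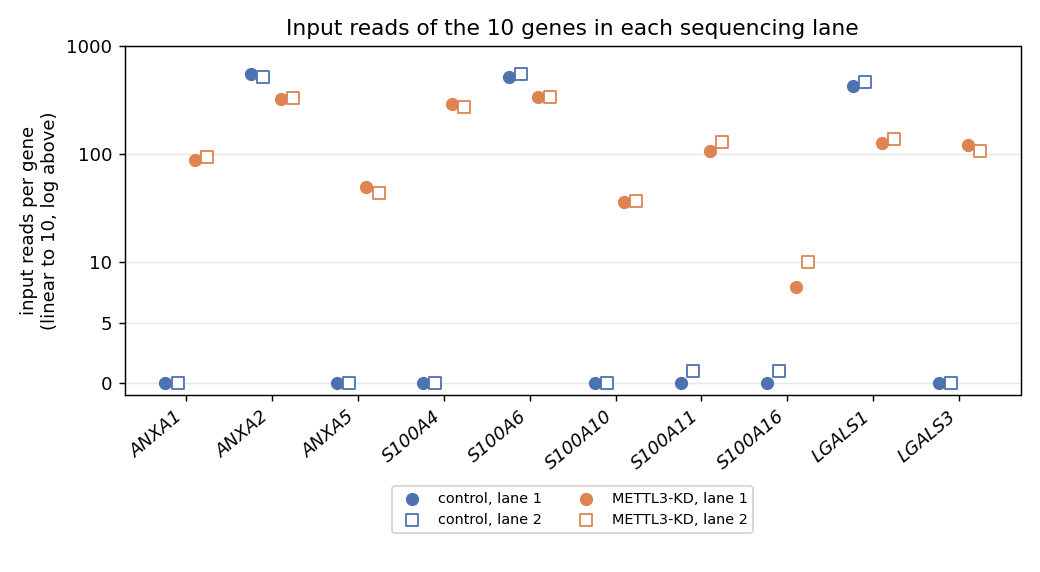
Input reads per gene in each lane of the control input (blue) and the METTL3-KD input (orange), on an axis that is linear to 10 and logarithmic above. ANXA2, S100A6 and LGALS1 have 423 to 551 reads in the control lanes, and the other 7 genes have 0 or 1.

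The libraries also differed in total reads, detected genes and distinct positions, and whether this accounts for the zeros was not tested. The control input held 3237968 reads in 2730 genes, and the METTL3-KD input held 1833005 reads in 10463 genes. The peak caller kept 9291 distinct positions in the control input and 52141 in the METTL3-KD input. The lowest prominent mode of reads per gene was 505 reads in the control and 17.8 in METTL3-KD cells. METTL3 itself had 0 reads in all 4 input lanes, which gives no check of the knockdown. The METTL3-KD list held 1 peak in a METTL3 intron, with a pileup of 1 fragment and a fold of 1.9997, under the study's fold above 2. The cells are labelled as epithelial. Of the epithelial markers, KRT8 and KRT18 had over 1000 reads in each input, whereas EPCAM and CDH1 had 0 in both. KRT19 had 1 control and 201 METTL3-KD reads, and KRT7 had 1 control and 0 METTL3-KD reads. VIM, a mesenchymal marker, had 8978 control and 5649 METTL3-KD reads. Of the markers of leukocytes, fibroblasts, acinar and islet cells, CD68 had 43 METTL3-KD reads and the other 6 had 0 in both. No library was repeated, so the knockdown and the difference between libraries cannot be told apart and no p-value between conditions is given, and intervals cover counting error of reads only, which are not independent molecules.

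Expressed as multiples of the lower mode, ANXA2 stood at 2.12 and LGALS1 at 1.75 in the control, with S100A6 just under ANXA2. In METTL3-KD cells, S100A6 stood at 38.2, ANXA2 at 36.6, S100A4 at 31.5, LGALS1 at 14.8 and S100A16 at 1.01. If the control had held the same share of reads as METTL3-KD cells, S100A4 would have reached 1.96 multiples, S100A11 0.833, LGALS3 0.798, ANXA1 0.644, ANXA5 0.329, S100A10 0.256 and S100A16 0.063. A count of 0 multiples allows up to 3, or 468 CPM (reads of a gene scaled by the total reads of its library), in the control, and no member exceeded this level in METTL3-KD cells, where the highest was S100A6 with 370 CPM (exact 95% interval 343 to 399). With levels taken as shares of all reads, a difference between conditions was therefore not detectable for the 7 members with 0 or 1 control reads. The absence of control reads was also common, since 77.3% of the 9931 genes tested had at most 3. It was less common at higher METTL3-KD reads. At least 10 control reads were found for 12.1% of genes with 10 to under 100 METTL3-KD reads. The percentage was 28.2 at 100 to under 250 and 59.2 at 250 to under 1000, the range that holds S100A4.

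**Figure D3:**
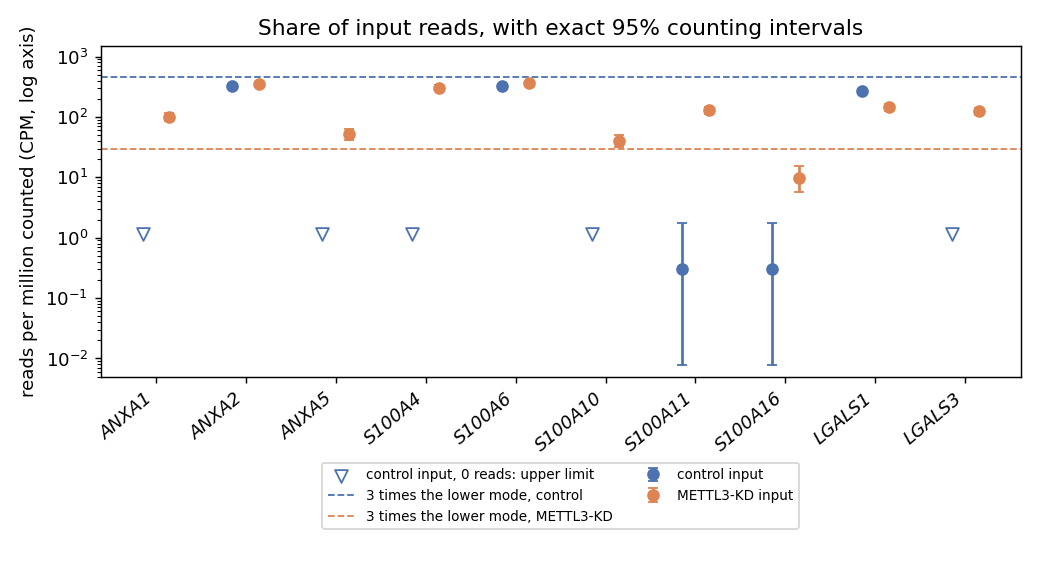
Share of input reads of each gene in CPM on a log axis, with exact 95% counting intervals, in the control (blue) and METTL3-KD cells (orange). Open triangles mark the upper limit of the interval (1.14 CPM) for the 5 genes with 0 control reads, and the dashed lines mark 3 times the lower mode, which is 468 CPM in the control and 29.1 CPM in METTL3-KD cells.

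Expression in the inputs was expressed as a log2 ratio, METTL3-KD over control, of reads scaled with trimmed means of log ratios (TMM), after a prior count of 2. Of the 10 members, 7 had a log2 ratio above 2 and none had one under -2. Of all 9931 genes tested, 79.2% lay above 2 and 7.2% under -2, so the share of higher members was near that of all genes. The median log2 ratio of the members was 6.91, against 5.64 for all genes tested, and it was 7.04 without the prior count and with the genes at 0 control reads set to a floor of 3 reads. In scaled reads, the exact 95% interval of the ratio put S100A4 at least 720-fold higher, LGALS3 at least 291-fold, ANXA1 at least 235-fold, ANXA5 at least 119-fold and S100A10 at least 91.7-fold. With 1 control read each, the ratio was 1131 for S100A11 (exact interval 201 to 44844) and 85.5 for S100A16 (13.5 to 3563). These folds describe reads and do not bound a change in expression. When reads were counted as multiples of the lower modes, the exact interval of the log2 ratio under TMM began at 0.45 for S100A4 and below 0 for the other 6 genes. The bound of 0.45 is smaller than the shift between scalings given next. Relative to the median read ratio of genes with at least 10 reads in each input, which moves with the scaling, the interval began at 1.01 for S100A4 and below 0 for the other 6. That reference leaves out every gene with 0 or 1 control reads, these 7 among them. Its median was -0.56, against 5.64 for all genes tested, so a gene without control reads lies high against it by construction. No difference between conditions is drawn from the bound of 1.01.

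The 3 members with control reads could be compared more directly. The log2 ratio was 1.60 for S100A6 (exact interval 1.46 to 1.75), 1.53 for ANXA2 (1.39 to 1.67) and 0.50 for LGALS1 (0.30 to 0.70). None passed 2, whereas 8.02% of the 1871 genes with at least 10 reads in each input lay above 2 and 20.4% lay under -2. The median of these 1871 genes was -0.56 under TMM, and it shifted by -1.42 under scaling by total counts and by 0.24 under DESeq2 size factors. With total counts the log2 ratios were 0.18 for S100A6, 0.10 for ANXA2 and -0.92 for LGALS1, so the direction of LGALS1 flipped with the scaling. Relative to the median of the 1871 genes, S100A6 lay 2.16 higher, ANXA2 2.08 higher and LGALS1 1.06 higher, at percentiles 88.2, 87.5 and 71.2. On multiples of the lower modes, each gene rests on 2 control multiples, and the median of read ratios (-0.56) was subtracted. The exact interval was then 0.28 to 5.32 for S100A6, 0.23 to 5.29 for ANXA2 and -1.22 to 4.06 for LGALS1. The median of ratios on multiples was -0.34, so against it all 3 intervals would begin lower. No difference between conditions is drawn from the bounds of 0.28 and 0.23.

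**Figure D4:**
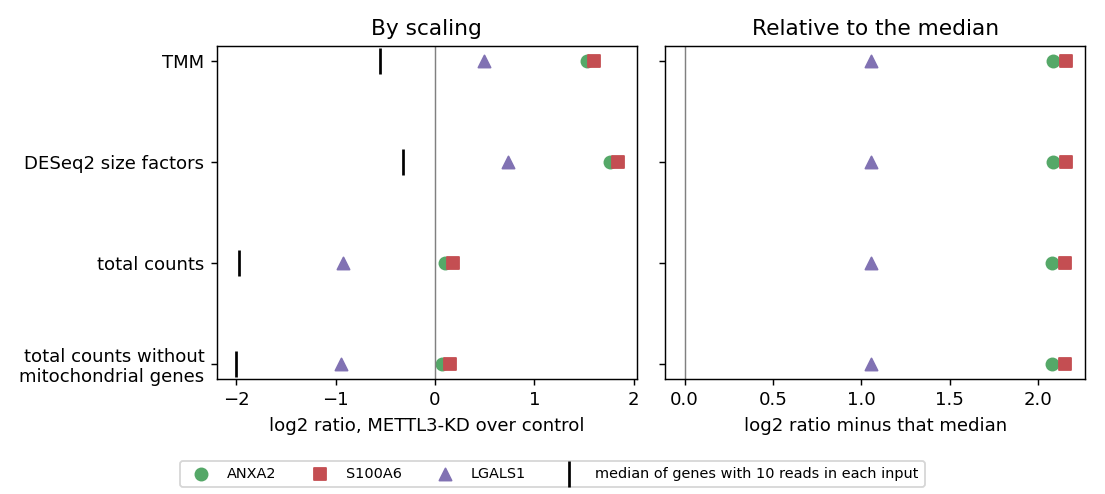
Log2 ratios of ANXA2, S100A6 and LGALS1 under 4 scalings (left) and the same values minus the median of the genes with at least 10 reads in each input (right). The left values move with the scaling, and LGALS1 goes from 0.50 under TMM to -0.92 under total counts. A scaling shifts all genes by nearly the same amount, and subtracting the median removes that shift. The right values therefore stay near 2.08, 2.16 and 1.06 by construction, which is no test of them.

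The order of levels within METTL3-KD cells was taken from CPM divided by exon length in kb (RPKM), since genes differ in length. S100A6 was highest at 381 RPKM (exact interval 353 to 411), followed by S100A4 at 324 (297 to 351), S100A11 at 200.1 (175 to 227) and LGALS1 at 134 (119 to 152). These intervals treat reads as independent, which they are not. In multiples of the lower mode, which are not divided by exon length, the same genes stood at 38.2, 31.5, 13.4 and 14.8. The lower place of S100A11 there follows from leaving out the length. These multiples are far fewer than the reads, so the order is less certain than the intervals show. Intervals on multiples were not computed for this order. S100A6 and S100A4 ranked 130 and 157 among 9329 detected genes with a length. LGALS3 had 56.6 RPKM, S100A10 39.4 and ANXA2 30.7, and the intervals of LGALS3 and S100A10 overlapped, as did those of S100A10 and ANXA2. ANXA1 had 22.5 and ANXA5 17.5 RPKM, with overlapping intervals, and S100A16 was lowest at 5.77. In the control, S100A6 had 337 RPKM, LGALS1 256 and ANXA2 28.6. Their control reads were 1060, 883 and 1071, so this order follows the exon lengths of 971, 1067 and 11574 nt. The same lengths divide the METTL3-KD reads, so the equal order of these 3 genes there does not show that expression order was repeated. The annotated exons of ANXA2 add up to 11574 nt over all transcripts, and with the longest transcript as length ANXA2 ranked 5 of 10 instead of 7.

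Processed pseudogenes can take reads of the members. ANXA2P2 on chromosome 9, the only pseudogene named after a member that had reads, had 9 control and 66 METTL3-KD reads, so the ANXA2 counts may be short by reads of this kind. S100A6 shared 37 nt of exon with an antisense noncoding gene that had 0 reads. The other members shared no exon with another annotated gene.

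The S100 family was split into detected and undetected genes. All 5 S100 members had METTL3-KD reads, whereas all 15 other S100 genes of the list, among them S100P, S100A2 and S100A8, had 0 reads in both inputs. Members and lists were chosen with earlier results of these data known, so this split is not an independent result about the family. Of 19488 protein-coding genes, 59.1% had 0 reads in both. Of the 12 other galectin genes, LGALS8 had 101 METTL3-KD reads and 0 control reads and the other 11 had no reads. Of all 48 other family and partner genes listed, 16 were tested, 14 lay above a log2 ratio of 2 and 0 under -2, near the 79.2% and 7.2% of all genes tested, and the median was 7.75. Of 11 genes listed with the annexins, which include the receptor gene ANXA2R, 6 were tested and 5 of these lay above a log2 ratio of 2, all with 0 or 1 control reads. ANXA7 had 552 and 624 control reads and 82 and 82 METTL3-KD reads. Its log2 ratio of -0.59 was 0.03 below the median of the 1871 genes, at percentile 49.0. ANXA10, the lowest of the other tested annexins, had 15 METTL3-KD reads and a log2 ratio of 4.50.

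Peaks in the other annexin genes lay in both lists. ANXA6, which carries a duplicated annexin core, had a METTL3-KD peak at 150480965 to 150481067 on chromosome 5, with its summit in coding sequence 7 nt before the end of the stop codon in exon 26 of 26. It had a pileup of 3 fragments and a −log10 q value of 10.9, and ANXA6 had 229 METTL3-KD reads and 0 control reads. ANXA4 had a control peak with a pileup of 1 and a fold of 1.9994 in an intron, 5122 nt from the nearest exon.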

How the data were processed

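Ribosomal reads were filtered out by the authors (Bowtie2), and the rest were aligned to hg19 (HISAT2) and counted (featureCounts). The deposited table holds raw whole-number counts for each lane of the inputs. Strand use, duplicates and multiple alignments are not given in the sources used here for this table. The authors called peaks with MACS2 2.1.1 on pooled lanes (m6A against input, extension to 100 bp, at most 1 read per position). The deposited pileup is a signal in fragments, the fold enrichment is the authors' ratio to the local background with a pseudocount, and the deposited −log10 column holds q values. The headers give a cut-off of 0.05 and the methods 0.01, and the latter was used here. The fold above 2 that the study also asks of significant peaks was an alternative.

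Column names were tied to sample titles through their cell code and lane, and samples were grouped by title. The lanes of a library were summed and counted as 1 sample. TMM factors (edgeR 4.0.16) were computed on all 9931 genes with at least 10 reads over both inputs. The ratio calculation was tested on simulated data for 2597 genes. Of the 63568 genes, 55665 had a symbol and exon length in GENCODE release 44 on GRCh37, the build called hg19 by the authors. The local background was recovered from fold and pileup. Modes were read from a kernel density of log10 reads (bandwidth 0.03). Members were all named, and of 48 other family and partner genes those with the 3 highest and lowest ratios, the most reads or a peak were named. One gene that this rule names is not reported here. S100P, S100A2, S100A8, LGALS8, CAPNS1, PDCD6, SRI and LGALS3BP were chosen after their values were seen. The members and lists were chosen with earlier results of these data known.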

Additional observations from a re-analysis of the deposited data

How the results depend on the processing

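Of 221 recomputed values 124 stayed the same, 97 moved and none of the members past 2 changed direction. The members past 2 were those with 0 or 1 control reads, so their direction was fixed by these counts and was not tested by the settings. The median log2 ratio of the members (6.91) was 5.87 with total counts, 5.85 without mitochondrial genes, 8.90 with a prior count of 0.5, 4.63 with one of 10, 7.22 for the 9 members that had 50 reads or more, and 1.41 on reads divided by the lower mode. With each lane left out it ranged from 6.27 to 7.06. Treating lanes as replicates in edgeR gave 6.05 without a replicate block and 6.05 with it. The pairing is by lane number only, and lane deviations of the conditions correlated at -0.016. On reads divided by the lower mode 3 members instead of 7 lay above 2, and the count was 6 where S100A16 fell under the filter on reads, 9 at a threshold of 1 and 7 otherwise. Of the other family and partner genes 14 lay above 2 and 0 under -2. Among those with at least 10 reads in each input 0 lay above 2, since 2 genes were left, and with total counts 1 gene, ANXA7, lay under -2. With a fold above 2 beside the q value, 3 members instead of 4 had a control peak. At a fold enrichment of at least 4, 1 member (S100A4) had a control peak instead of 4. Of the 5 peaks with a DRACH motif, 1 had GGAC. Of 138 log2 ratios of single members 136 stayed above 0, the exceptions being those of LGALS1 under both total count scalings (-0.92 and -0.95). Only ANXA2, S100A6 and LGALS1 had enough control reads for a change of sign. The prior count sets the size of ratios against 0 control reads, and for the other changes the cause was not tested. The control input held more reads but fewer distinct positions, and 358 of its genes reached 3 times the lower mode, against 4624 in METTL3-KD cells.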

Other observations

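Partners of the annexin and S100 proteins were measured in the same inputs. AHNAK, a giant scaffold protein bound by the complex of ANXA2 and S100A10, had 6751 and 6666 control reads and 1390 and 1511 METTL3-KD reads. Its log2 ratio was 0.04, which was 0.60 above the median of the 1871 genes with at least 10 reads in each input, at percentile 63.8. CALM2 and CALM3, which encode the EF-hand calcium sensor calmodulin, had 725 and 486 METTL3-KD reads and 0 and 1 control reads. The calpain genes CAPN1, CAPN2 and CAPNS1, whose products form calcium-dependent proteases, had 146, 451 and 336 METTL3-KD reads and 0 control reads. The EF-hand genes PDCD6 and SRI had 161 and 37 METTL3-KD reads and 0 control reads, and LGALS3BP, the gene of a galectin-3 ligand, had 0 reads in both. Of all 9931 genes tested, 74.3% had 0 control reads and 77.3% at most 3, so such counts were not particular to these partners.

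CAPN1 and CAPN2 each had a control m6A peak with its summit in the 3′UTR and no METTL3-KD peak. Of all 9931 genes tested, 15.3% had a control peak and 5.1% a METTL3-KD peak, so lack of a METTL3-KD peak was common. The CAPN1 peak at 64978719 to 64978818 on chromosome 11 had its summit 12 nt after the stop codon, and the CAPN2 peak at 223963365 to 223963464 on chromosome 1 had its summit 856 nt after it. Both rested on a pileup of 1 fragment and a fold of 1.9994, under the fold above 2 that the study asks of significant peaks.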
